A study of Mus musculus with 24 samples.

Results

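The enzymes described here make asparagine, serine and folate-bound one-carbon units, and their 10 genes were chosen by name: Asns, Phgdh, Psat1, Psph, Shmt1, Shmt2, Mthfd1, Mthfd1l, Mthfd2 and Aldh1l2. These 10 genes are part of 55487 genes in the deposited tables, of which 28655 had a count in any library and 14535 entered the tests. Every one of the 10 had counts and passed the filter on low counts. The list was proposed after the day 7 genotype difference of these data was known, so the members' day 7 values, and how many were past the threshold on that day, describe that choice and nothing is read from them.

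Poly(A) RNA was sequenced from bone-marrow-derived dendritic cells, which are grown from mouse marrow with the growth factor GM-CSF. Control mice carried ARPC4 Flox/Flox alleles and were CD11c-Cre -/- (WT below). Knockout mice carried the same ARPC4 Flox/Flox alleles and were CD11c-Cre +/- (KO below), so the floxed alleles are shared by both genotypes. The Cre is driven by the CD11c promoter and acts once a cell expresses CD11c, and Arpc4 encodes a subunit of the Arp2/3 complex, which nucleates branched actin. Donors were male and female mice aged 8 to 10 weeks. Cells were replated on day 4 and day 7, and floating cells were taken on day 7, 8, 9 or 10 of culture, with adherent cells discarded. The 2 genotypes and 4 days gave 8 groups of 3 mice and 24 libraries, with mice numbered 63, 65 and 66 in WT and 64, 67 and 68 in KO. The protocols list 2 library kits but do not assign them to libraries.

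Asparagine synthetase, encoded by Asns, makes asparagine from aspartate and glutamine. Phgdh, Psat1 and Psph encode the 3 successive enzymes that make serine from the glycolytic intermediate 3-phosphoglycerate. Serine hydroxymethyltransferases move a carbon from serine onto folate and release glycine, Shmt1 in the cytosol and Shmt2 in mitochondria. The folate-bound carbon is then interconverted by Mthfd1 in the cytosol, oxidised by Mthfd2 in mitochondria and released there as formate by Mthfd1l, and it feeds purine and thymidylate synthesis. Aldh1l2 is the mitochondrial enzyme that oxidises formyl-folate to carbon dioxide. In many cells Asns, Phgdh, Psat1, Shmt2 and Mthfd2 are targets of the transcription factor ATF4, which the integrated stress response induces when amino acids are scarce.

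Total counts ran from 19952047 to 31049798 per library. Arpc4 was lower in KO than in WT without overlap on each day, with a log2 fold change of -0.22 ± 0.04 (SE; adjusted p = 0.0045) over days 8 to 10, and a count per gene cannot separate deleted from intact transcript. Itgax, which encodes CD11c, was at 750.4 to 1661 CPM (here CPM is the count scaled to a common library total with TMM factors) in all 24 libraries. On day 7 it was at 1068 to 1315 CPM in WT and 870.9 to 993.1 CPM in KO. It was thus lower in KO without overlap, as were 14.2% of all genes tested. Itgax was lower in KO without overlap on day 9 too, at 1348 to 1590 CPM against 1013 to 1287 CPM. The genotypes overlapped on days 8 and 10. Ddx3y, a Y-linked gene, was at 56.54 to 83.94 CPM in 8 libraries, 1 per group, and at no more than 0.136 CPM in the other 16. In WT the Ddx3y-positive library was mouse 63 on every day. In KO it was mouse 64 on days 7 and 9, mouse 68 on day 8 and mouse 67 on day 10, which goes against 1 animal per number.

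Because 4 enzyme genes were lower together in KO on day 7 (Asns, Phgdh, Psat1 and Mthfd2), the bases just upstream of 1 transcript start of each are shown. They were read from RefSeq promoter windows of 300 bases (250 before to 50 after the start, GRCm38.p6), which 9 of the 10 genes matched in 10 windows. The C/EBP-ATF response element core, spelled TGATGNAA, was searched on both strands. It was found in 1 member window, that of Asns, at bases -23 to -16 from the RefSeq start on the gene's own strand. Capitals in the first sequence mark those matched bases, at chr6:7693225-7693232, which lie in the first exon of an Asns transcript of GENCODE M21 that starts upstream of the RefSeq start. The stretches of 120 bases overlap no annotated exon and lie next to the start of 1 annotated transcript of their gene. Those of Psat1 and Mthfd2 are inside the annotated gene, in an intron of another transcript that starts farther upstream, whereas those of Asns and Phgdh lie upstream of the whole gene. All 4 genes lie on the reverse strand, and each sequence reads 5′ to 3′ along the gene.
Asns, 30 bases around the match, chr6:7693214-7693243: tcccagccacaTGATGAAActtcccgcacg
Asns, 120 bases upstream of the gene, chr6:7693255-7693374: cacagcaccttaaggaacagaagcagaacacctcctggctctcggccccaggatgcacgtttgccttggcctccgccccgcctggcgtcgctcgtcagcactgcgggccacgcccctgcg
Phgdh, 120 bases upstream of the gene, chr3:98339991-98340110: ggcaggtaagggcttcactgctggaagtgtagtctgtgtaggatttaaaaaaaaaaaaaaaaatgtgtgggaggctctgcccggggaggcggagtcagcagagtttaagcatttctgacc
Psat1, 120 bases upstream of 1 transcript start, inside the gene, chr19:15925060-15925179: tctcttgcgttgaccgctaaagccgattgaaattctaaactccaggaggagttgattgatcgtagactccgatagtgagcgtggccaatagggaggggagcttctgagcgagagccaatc
Mthfd2, 120 bases upstream of 1 transcript start, inside the gene, chr6:83317607-83317726: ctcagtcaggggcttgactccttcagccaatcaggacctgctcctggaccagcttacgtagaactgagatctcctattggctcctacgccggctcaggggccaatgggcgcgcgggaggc
Of all 32851 promoter windows, 3.97% held TGATGNAA. The E-box core CACGTG, searched in the same way, was in 0 of the 10 member windows and in 7.15% of all windows. A match describes letters in the window and shows no binding.

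On day 7, 4 of the 10 genes were lower in KO past the threshold (adjusted p under 0.05): Asns, Psat1, Phgdh and Mthfd2. Among all genes tested on that day 1.45% passed, and 0.619% passed as lower. The list was proposed from this contrast, so the count of 4 describes the choice and nothing is read from it. On days 8, 9 and 10 no member passed. The plot of the 10 genes by day shows where the genotypes part and where they meet.

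**Figure D1:**
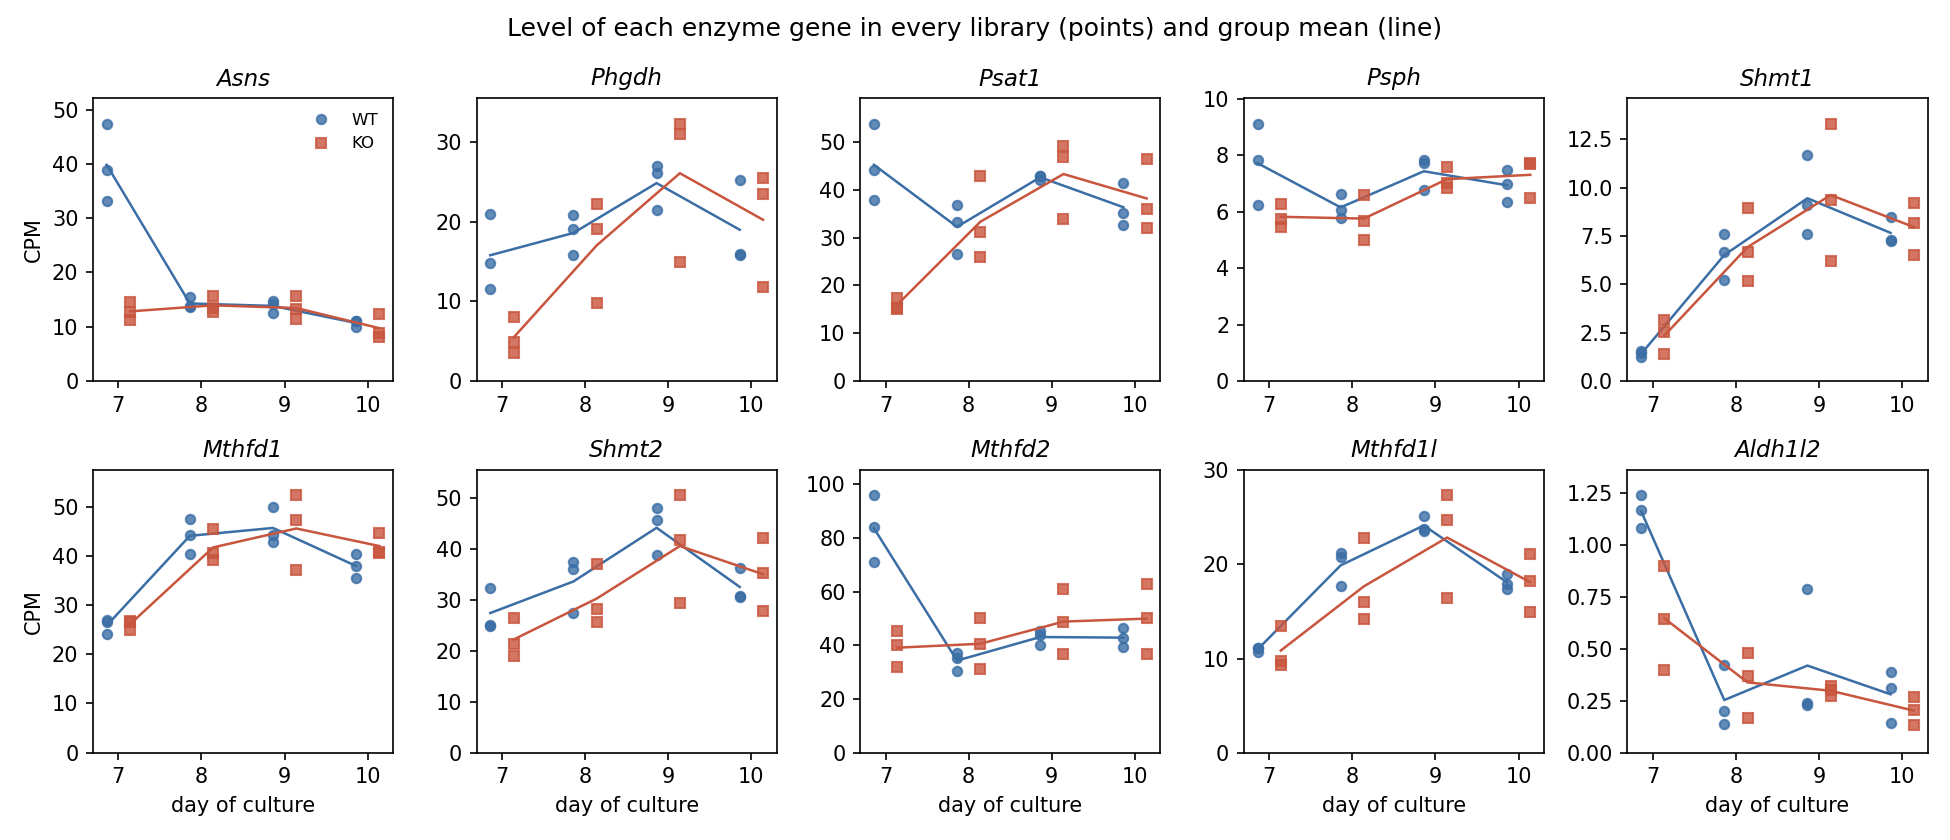
Level of each of the 10 enzyme genes in CPM (vertical axis, linear, from 0) by day of culture (horizontal axis), with 1 point per library (WT circles, KO squares) and a line through the group means of 3 libraries. The 3 WT points for Asns on day 7 sit between 33.2 and 47.41 CPM, above every other library.

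Asns (chr6:7675169-7693254, reverse strand, GENCODE M21 on GRCm38) had the largest day 7 difference of the 10. On day 7 the WT libraries (mice 63, 65 and 66) had 33.2, 38.9 and 47.41 CPM, and the KO libraries (mice 64, 67 and 68) had 11.22, 14.53 and 12.73 CPM. All 3 WT libraries lay above all 3 KO libraries, with a log2 fold change of -1.64 ± 0.16 (SE), or 3.11-fold lower in KO. On day 8 the WT libraries had 15.41, 13.82 and 13.64 CPM and the KO libraries 12.72, 15.59 and 13.52 CPM. By that day the genotypes overlapped, and they overlapped again on days 9 and 10, with WT libraries at 9.86 to 14.8 CPM and KO libraries at 8.08 to 15.6 CPM.

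Among the serine synthesis genes, Phgdh (chr3:98313170-98339990, reverse strand), whose enzyme takes the committed step, was low in KO on day 7. Its WT libraries had 11.56, 14.84 and 21.05 CPM and its KO libraries 3.472, 8.015 and 4.929 CPM, without overlap, at a log2 fold change of -1.53 ± 0.37. From day 8 to day 10 the groups overlapped, with WT at 15.85 to 27.0 CPM and KO at 9.845 to 32.36 CPM. The KO range held the lowest and the highest Phgdh library of those days.

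Psat1 (chr19:15904678-15947337, reverse strand) encodes the aminotransferase of the second step. On day 7 its WT libraries had 37.77, 44.1 and 53.82 CPM against 15.37, 15.13 and 17.32 CPM in KO. The KO libraries lay close together, below every WT library, at a log2 fold change of -1.5 ± 0.19 (2.84-fold lower). On day 8 the values were 36.79, 26.65 and 33.3 CPM in WT and 31.11, 42.84 and 25.99 CPM in KO, which overlapped. Over days 9 and 10 the 6 WT libraries held 32.57 to 42.9 CPM and the 6 KO libraries 32.06 to 49.2 CPM.

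Psph (chr5:129765558-129787449, reverse strand), the phosphatase that releases free serine, moved least of the 3. Its day 7 values were 6.222, 7.818 and 9.113 CPM in WT and 5.748, 5.443 and 6.257 CPM in KO. The lowest WT library lay just under the highest KO library, and the log2 fold change was -0.41 ± 0.14. Psph shares its locus with Cct6a on the opposite strand, whose counts came to 2180% of those of Psph. The strand setting of the counting is not given in the sources used here, so the Psph counts are uncertain.

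The cytosolic enzymes did not follow that pattern. Shmt1 (chr11:60788104-60811718, reverse strand) had 1.445, 1.217 and 1.54 CPM in WT on day 7 and 1.397, 3.129 and 2.529 CPM in KO, overlapping, at a log2 fold change of 0.74 ± 0.32. On day 10 it had 7.226, 7.291 and 8.455 CPM in WT and 9.215, 6.491 and 8.168 CPM in KO. Shmt1 was thus lowest on day 7 in both genotypes, and its counts are uncertain for the same reason as those of Psph: the opposite-strand gene Smcr8 had 1800% of its counts. Few reads lay behind its day 7 values, 26 to 36 counts per WT library and 35 to 73 per KO library.

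Mthfd1 (chr12:76255298-76319803, forward strand), which carries 3 folate-interconverting activities, was level between the genotypes on day 7. It then had 24.09, 26.5 and 26.91 CPM in WT and 26.58, 26.66 and 25.03 CPM in KO, at a log2 fold change of 0.01 ± 0.10. On day 8 it had 47.55, 40.35 and 44.35 CPM in WT and 39.12, 45.49 and 40.56 CPM in KO. Both genotypes were higher on day 8 than on day 7 in all 6 libraries. On day 10 the KO libraries, at 44.58, 40.8 and 40.61 CPM, lay above the WT libraries, at 35.42, 38.02 and 40.37 CPM. Across all genes tested 5.47% were higher in KO without overlap on that day, and Mthfd1 did not pass the test.

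In mitochondria, Mthfd2 (chr6:83305691-83325908, reverse strand), which oxidises methylene-folate, separated by genotype on day 7. Its WT libraries had 70.89, 84.18 and 95.92 CPM and its KO libraries 31.81, 45.22 and 40.29 CPM. These did not overlap, and the log2 fold change was -1.10 ± 0.20 (2.14-fold lower). On day 8 Mthfd2 had 37.18, 35.15 and 30.59 CPM in WT and 40.37, 50.35 and 31.01 CPM in KO. The genotypes overlapped from day 8 on, with 39.28 to 46.61 CPM in WT and 36.68 to 62.92 CPM in KO over days 9 and 10.

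Shmt2 (chr10:127517123-127522444, reverse strand) had 24.89, 25.0 and 32.22 CPM in WT on day 7 and 18.96, 26.32 and 21.22 CPM in KO, which overlapped, at a log2 fold change of -0.30 ± 0.20. Mthfd1l (chr10:3973118-4167081, forward strand), which releases formate, had 11.12, 11.1 and 10.65 CPM in WT and 9.739, 13.46 and 9.343 CPM in KO on the same day, at -0.01 ± 0.19. Neither gene separated the genotypes, although both belong to the same mitochondrial route as Mthfd2. Aldh1l2 (chr10:83487450-83534140, reverse strand) was sparse, with 4 to 29 counts per library. On day 7 it had 1.084, 1.17 and 1.241 CPM in WT and 0.3991, 0.9001 and 0.6429 CPM in KO, without overlap, at -0.85 ± 0.42. The opposite-strand gene D10Wsu102e had 7920% of its counts, so Aldh1l2 is uncertain too.

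Taking the day 7 comparison as a whole, 5 of the 10 genes were lower in KO without overlap (Asns, Phgdh, Psat1, Mthfd2 and Aldh1l2), against 14.2% of all genes tested. The median log2 fold change of the 10 was -0.63, and that of all genes was -0.01. Because the list was chosen from this contrast, the counts say nothing beyond it. Without the Ddx3y-positive library of each group (2 libraries against 2), the estimates were -1.66 for Asns, -1.59 for Psat1, -1.47 for Phgdh and -1.07 for Mthfd2. Phgdh was no longer past the threshold in 8 of 16 alternatives, among them the fit with the mouse number as a block (-1.57 ± 0.50). Without WT mouse 65 (Mthfd2 at -1.09) or WT mouse 66 (Mthfd2 at -0.98), neither Phgdh nor Mthfd2 was past it, which left 2 of 10 genes.

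**Figure D2:**
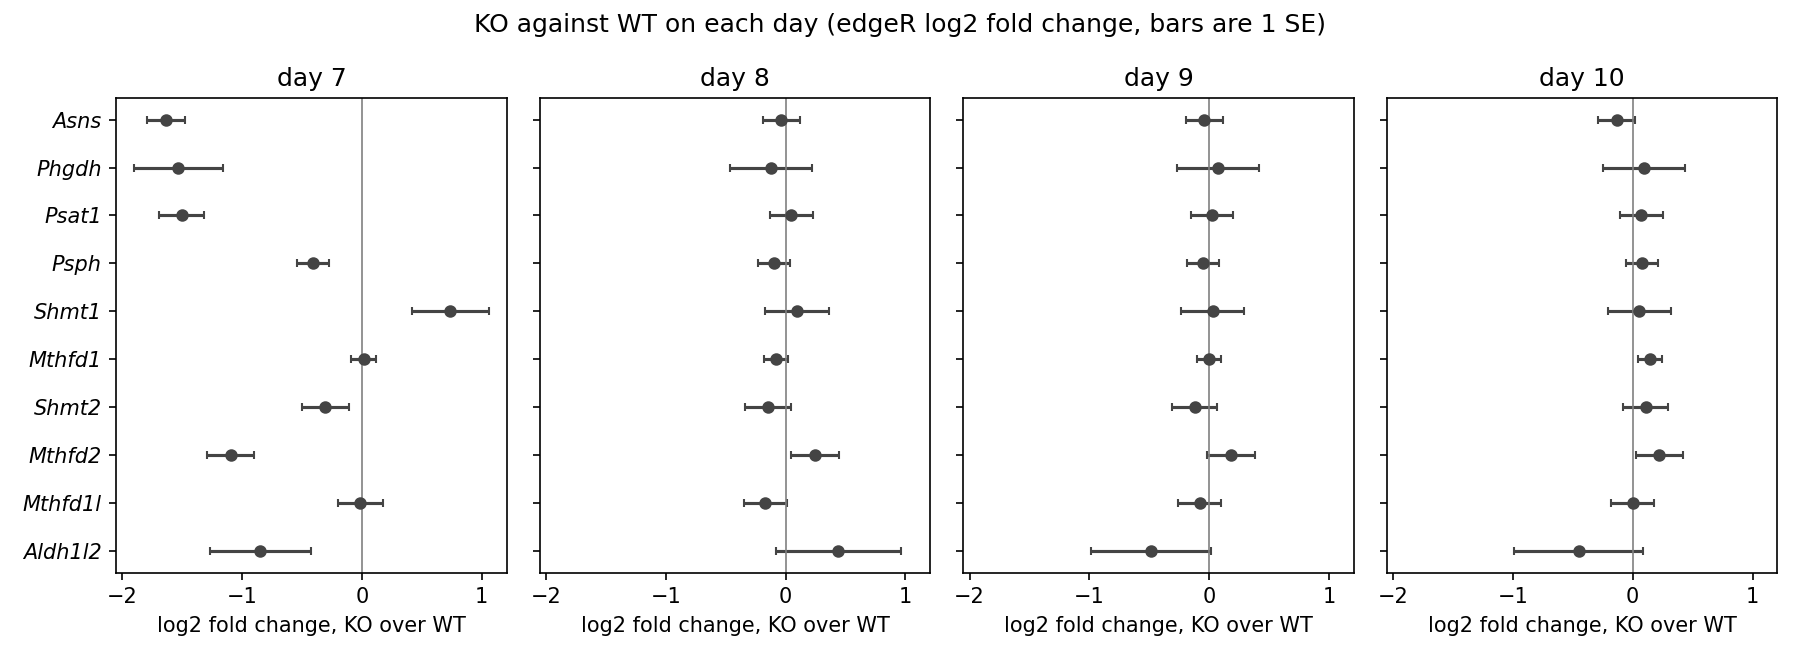
Log2 fold change of KO over WT (horizontal axis) for each enzyme gene (rows) on days 7, 8, 9 and 10 (panels); points are edgeR estimates from 3 libraries per group and bars are 1 SE. On day 7 Asns lies at -1.64, Phgdh at -1.53, Psat1 at -1.5 and Mthfd2 at -1.10, and from day 8 on every gene lies between -0.48 and 0.44.

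The libraries of days 8 to 10 were not used in the day 7 contrast and allow a test. On day 8, 0 of 10 genes were called by edgeR's quasi-likelihood test, and 0 had an unadjusted p under 0.05, beside 0.00688% and 5.91% of all genes. On day 9 the counts were again 0 and 0, beside 0.00688% and 8.15% of all genes. On day 10 they were 0 and 0, beside 0.0138% and 7.3%. With so few genes called on these days, a count of 0 among 10 is near the background. The DESeq2 Wald test also called 0 members on each of these days, and 17, 88 and 43 genes in all. Log2 fold changes ran from -0.17 to 0.44 on day 8, from -0.48 to 0.18 on day 9 and from -0.45 to 0.22 on day 10.

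Averaged over days 8 to 10, the comparison was more precise and called 4.46% of all genes, but again 0 of the 10. Of the 10, 0 had an unadjusted p under 0.05, beside 18.4% of all genes, and DESeq2 called 0, beside 948 genes in all. The 95% confidence interval of the log2 fold change ran from -0.26 to 0.12 for Asns, from -0.17 to 0.26 for Psat1 and from -0.40 to 0.43 for Phgdh. For Mthfd1 the interval was -0.10 to 0.14, for Shmt2 -0.28 to 0.18, for Mthfd1l -0.30 to 0.13 and for Shmt1 -0.26 to 0.38. Mthfd2 was estimated at 0.22 ± 0.11 (interval -0.02 to 0.45, adjusted p = 0.33), opposite in sign to day 7. When the Ddx3y-positive libraries were left out, an alternative chosen after seeing the data, Mthfd2 passed at 0.42 ± 0.09 (adjusted p = 0.009) as the only member, while 14.5% of all genes passed. The libraries of 1 mouse recur across the days, so these errors may be too small.

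Next, each genotype was followed from day 7. These comparisons share the day 7 libraries with the contrast that was known when the genes were proposed, so they are not independent of it. In WT, 7 of 10 genes were called between day 7 and day 8, 3 higher and 4 lower, against 43.4% of all genes (21.5% higher and 22% lower). Asns fell by 1.48 ± 0.16 on the log2 scale (adjusted p = 3e-07), Mthfd2 by 1.29 ± 0.20 (adjusted p = 2.9e-05) and Aldh1l2 by 2.19 ± 0.47 (adjusted p = 0.00083; -0.35 by limma on log2(TPM + 1), still past the threshold). Psat1 fell by 0.49 ± 0.18 (adjusted p = 0.033), a call lost without WT mouse 65 or mouse 66 and by limma on log2(TPM + 1), where it was at -0.25. Shmt1 rose by 2.21 ± 0.31 (adjusted p = 8.3e-06), a 4.62-fold increase, Mthfd1 by 0.77 ± 0.10 (adjusted p = 5.3e-06) and Mthfd1l by 0.86 ± 0.18 (adjusted p = 0.00079).

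In KO, 5 of 10 genes were called over the same step, all higher, against 42% of all genes (21.1% higher). Phgdh rose by 1.65 ± 0.37 (adjusted p = 0.0013), Psat1 by 1.07 ± 0.19 (adjusted p = 0.00011) and Shmt1 by 1.56 ± 0.29 (adjusted p = 2e-04). Mthfd1 rose by 0.68 ± 0.10 (adjusted p = 2.5e-05) and Mthfd1l by 0.71 ± 0.18 (adjusted p = 0.0042). Asns, at 0.12 ± 0.16, and Mthfd2, at 0.06 ± 0.20, did not pass. Both genotypes shared 4 called genes: Shmt1, Mthfd1 and Mthfd1l in the same direction, and Psat1 in opposite directions.

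**Figure D3:**
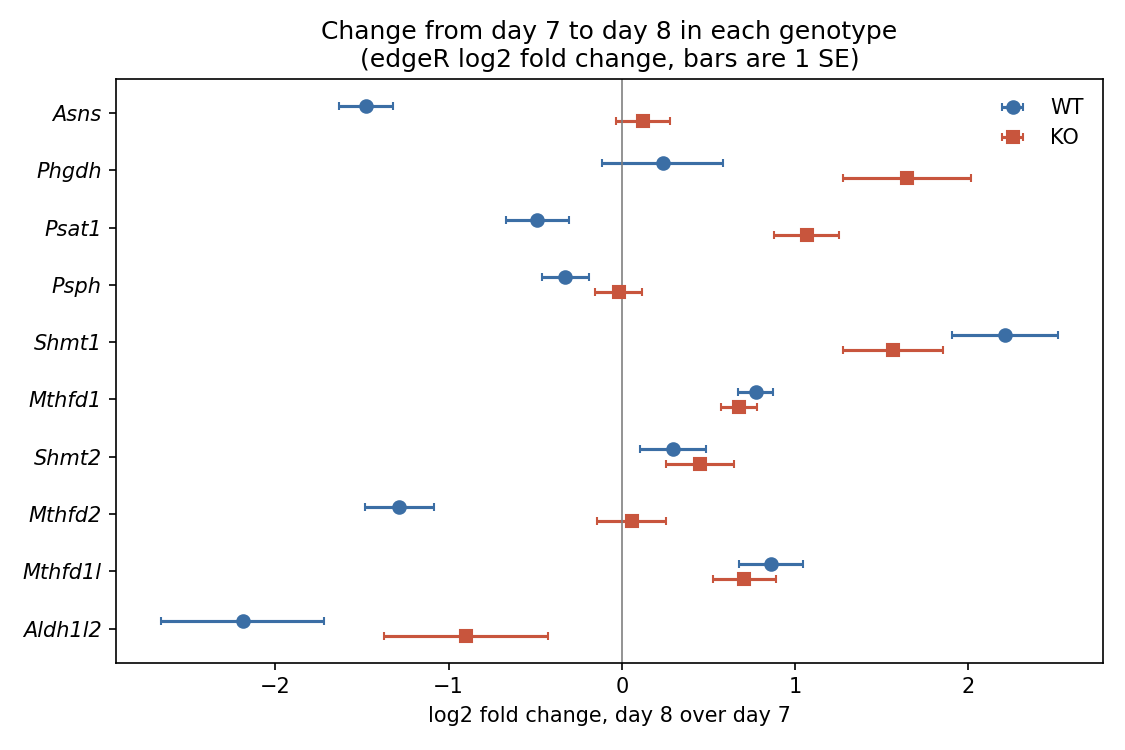
Log2 fold change from day 7 to day 8 (horizontal axis) for each enzyme gene (rows) in WT (circles) and KO (squares); points are edgeR estimates from 3 libraries per group and bars are 1 SE. Shmt1, Mthfd1 and Mthfd1l lie to the right of 0 in both genotypes, whereas Asns lies at -1.48 in WT and 0.12 in KO, and Psat1 at -0.49 and 1.07.

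The difference between the genotypes in that step contains the day 7 contrast from which the genes were chosen, so it is given as a description. It was 1.60 ± 0.22 for Asns, 1.55 ± 0.26 for Psat1, 1.41 for Phgdh and 1.34 for Mthfd2. Asns and Psat1 were past the threshold, as were 0.0275% of all genes. From day 7 to day 10 the same difference was 1.5 for Asns and 1.58 for Psat1, both past the threshold with 0.0619% of all genes, and 1.63 for Phgdh and 1.32 for Mthfd2. These values restate the day 7 difference and support nothing beyond it. With the mouse number as a replicate block, 1 gene instead of 2 was past the threshold from day 7 to day 8, and leaving out 1 mouse at a time gave 0 to 1 genes.

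After day 8 no member passed in either genotype in the edgeR fit with 1 coefficient per group. Between days 8 and 9, 0 of 10 genes were called in WT, beside 5.4% of all genes, and 0 in KO, beside 2.33%. At an unadjusted p under 0.05 stood 1 in WT and 3 in KO, beside 21.8% and 18.7% of all genes. Between days 9 and 10, 0 were called in WT, beside 3.6%, and 0 in KO, beside 0.0963%. At an unadjusted p under 0.05 stood 4 in WT and 1 in KO, beside 17.7% and 12% of all genes. From day 8 to day 9 the log2 fold changes ran from -0.05 to 0.73 in WT and from -0.20 to 0.61 in KO. From day 9 to day 10 they ran from -0.57 to -0.01 in WT, where all 10 were negative, and from -0.54 to 0.03 in KO, where 8 were. WT counts rose to 6 and then 4 of 10 in the 2 steps when the mouse was used as a block with the KO numbers exchanged to follow Ddx3y, a fit in which 16.6% and 13% of all genes were called. In KO that fit called 5 and then 2 of 10, beside 13.2% and 5.95% of all genes.

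Over the whole interval from day 7 to day 10, 6 of 10 genes were called in WT, 3 in each direction, against 37% of all genes (18.9% higher and 18.1% lower). Asns ended lower by 1.90 ± 0.16 (adjusted p = 4.9e-08), a 3.73-fold difference. Mthfd2 fell by 0.96 ± 0.20 and Aldh1l2 by 2.03 ± 0.46, while Shmt1 rose by 2.44 ± 0.31, Mthfd1 by 0.55 ± 0.10 and Mthfd1l by 0.72 ± 0.18. In KO, 7 of 10 were called, 6 higher and 1 lower, against 36.8% of all genes (19.7% higher and 17.1% lower). Phgdh rose by 1.89 ± 0.37, Psat1 by 1.26 ± 0.19, Shmt1 by 1.76 ± 0.29, Mthfd1 by 0.69 ± 0.10, Mthfd1l by 0.74 ± 0.18 and Shmt2 by 0.66 ± 0.19. Aldh1l2 fell by 1.64 ± 0.49. Asns was at -0.40 ± 0.16 (adjusted p = 0.054) in KO. The Shmt2 call was lost without KO mouse 64 or mouse 68, and its value ran from 0.403 to 0.933 without 1 mouse at a time. The KO Aldh1l2 call was lost without KO mouse 67 or mouse 68 and by limma on log2(TPM + 1). By limma Aldh1l2 was at -0.18 in KO (WT -0.34, still past the threshold). Markers moved over the same interval. Of the 12 macrophage genes 8 were called lower in WT and 9 in KO, and the list's sum went from 5315 to 6093 CPM on day 7 to 2181 to 2256 CPM on day 10 in WT, and from 4555 to 7451 CPM to 1980 to 2996 CPM in KO. Of the 12 dendritic cell genes 7 were called higher in each genotype, with sums of 2621 to 3319 CPM on day 7 and 5915 to 7950 CPM on day 10 in WT, and 2980 to 3748 CPM and 5200 to 9216 CPM in KO. No gene of either list was at 0, and their part in the enzyme changes was not tested.

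Levels of different genes were compared as TPM, which scale by gene length. Mthfd2 had the highest mean in WT on day 7, at 63.66 TPM, followed by Asns (38.64 TPM) and Psat1 (28.21 TPM), the last pair overlapping. Shmt1 (0.957 TPM) and Aldh1l2 (0.413 TPM) stood at the bottom. Asns, second of 10 in WT on day 7, was at rank 7 on day 10, at 12.6 TPM, where it overlapped Mthfd1l at 13.2 TPM. In KO on day 7 the order was Mthfd2 (31.08 TPM), Shmt2 (19.78 TPM), Mthfd1 (16.25 TPM) and Asns (13.0 TPM), of which Shmt2, Mthfd1 and Asns overlapped with their neighbours. Summed over the 10 genes, day 7 libraries held 168.5 to 230.7 TPM in WT and 93.9 to 129.4 TPM in KO, without overlap. The genes were chosen from the day 7 contrast, so this gap restates the choice and nothing is read from it. On day 10 the sums were 180.9 to 204.2 TPM in WT and 158.8 to 276.5 TPM in KO.

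The balance between the compartments was read as a ratio of TPM within each library. Mthfd2 over Mthfd1 was 4.11 ± 0.40 (SD, n = 3) in WT on day 7 and 0.995 ± 0.12 on day 8. In KO it was 1.91 ± 0.34 on day 7 and 1.23 ± 0.23 on day 8. On day 7 every WT library (3.75 to 4.54) was above every KO library (1.53 to 2.16), and by day 10 the means were 1.44 and 1.51. Shmt2 over Shmt1 was 24.4 ± 2.5 in WT and 12.6 ± 3.7 in KO on day 7, without overlap, and between 4.74 and 6.99 in every later library. The day 7 values of that ratio rest on the few Shmt1 counts given above. These ratios rest on the same day 7 libraries as the choice of genes and carry no test.

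**Figure D4:**
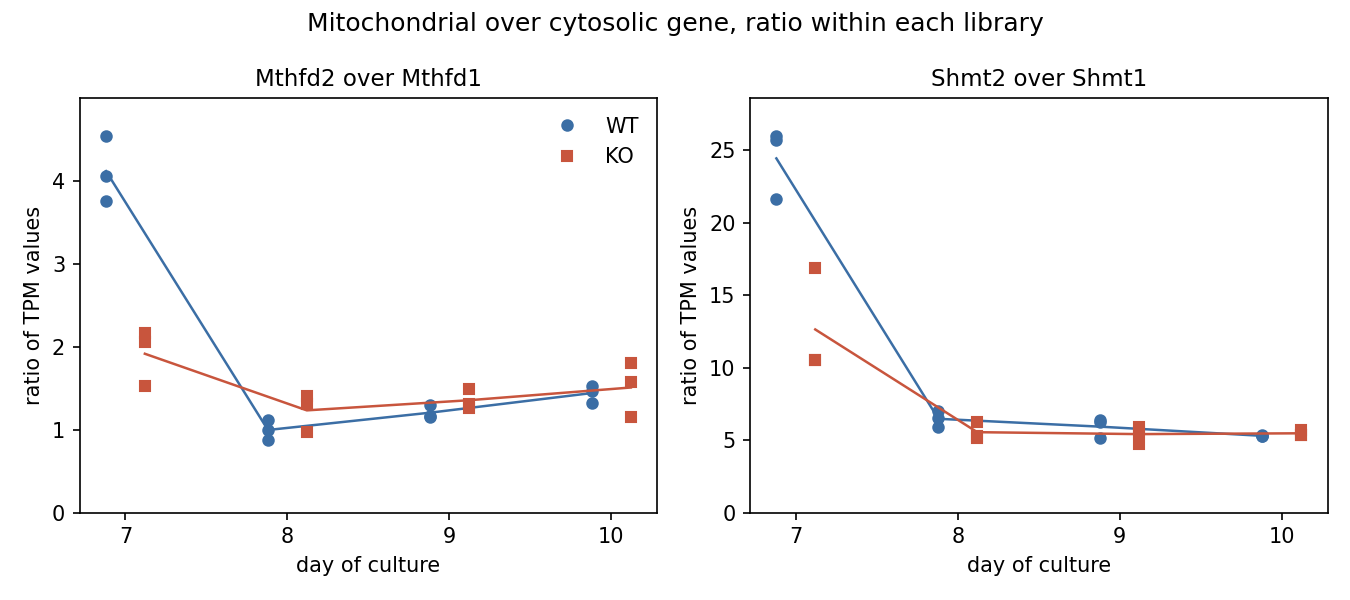
Ratio of TPM values within each library (vertical axis, from 0) by day (horizontal axis) for Mthfd2 over Mthfd1 and for Shmt2 over Shmt1, with 1 point per library and a line through the mean of 3. Both ratios are highest in the WT libraries of day 7, at 3.75 to 4.54 and 21.6 to 26.0, and the genotypes overlap on days 8, 9 and 10.

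The spread of the enzyme genes within KO groups went with Ddx3y. The Ddx3y-positive KO library was the lowest of its 3 in 32 of 40 gene-by-day cases and the highest in 1. For Phgdh, Shmt1, Shmt2, Mthfd2 and Aldh1l2 it was the lowest on all 4 days. In WT the Ddx3y-positive library was the lowest in 17 of 40 cases and the highest in 15. The same count was not made over all genes, so these numbers are not read as particular to the enzymes. The 40 cases of a genotype are 10 genes on 4 days and are not independent of each other. The Ddx3y-positive KO libraries had the lowest sum of a 24-gene cell division list on each day, at 666.8, 599.5, 1214 and 1347 CPM. The Ddx3y-positive WT library had the lowest sum of that list on no day. A 12-gene dendritic cell list was lowest in the Ddx3y-positive library of both genotypes on all 4 days, at 2980, 2924, 3778 and 5200 CPM in KO and 2621, 3222, 4766 and 5915 CPM in WT. The mast cell and basophil list (10 genes) was lowest there too, at 92.96, 144.6, 179.1 and 77.62 CPM in KO and 84.98, 122, 124.1 and 71.44 CPM in WT. The 10-gene lymphocyte list was lowest in that library on all 4 days in KO and on days 7, 8 and 10 in WT. The 12-gene macrophage list went the other way in KO, where that library was the highest of its 3 on days 8, 9 and 10 (4868, 3256 and 2996 CPM) and the middle one on day 7 (7092 CPM). In WT that library was the lowest for the macrophage list on day 8 and the highest on day 10. The neutrophil list was lowest there on days 7 and 10 in KO and on days 7, 8 and 10 in WT. For the erythroid list it was the lowest on no day in KO and on day 10 in WT. Sex, mouse and cell composition cannot be told apart here.

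**Figure D5:**
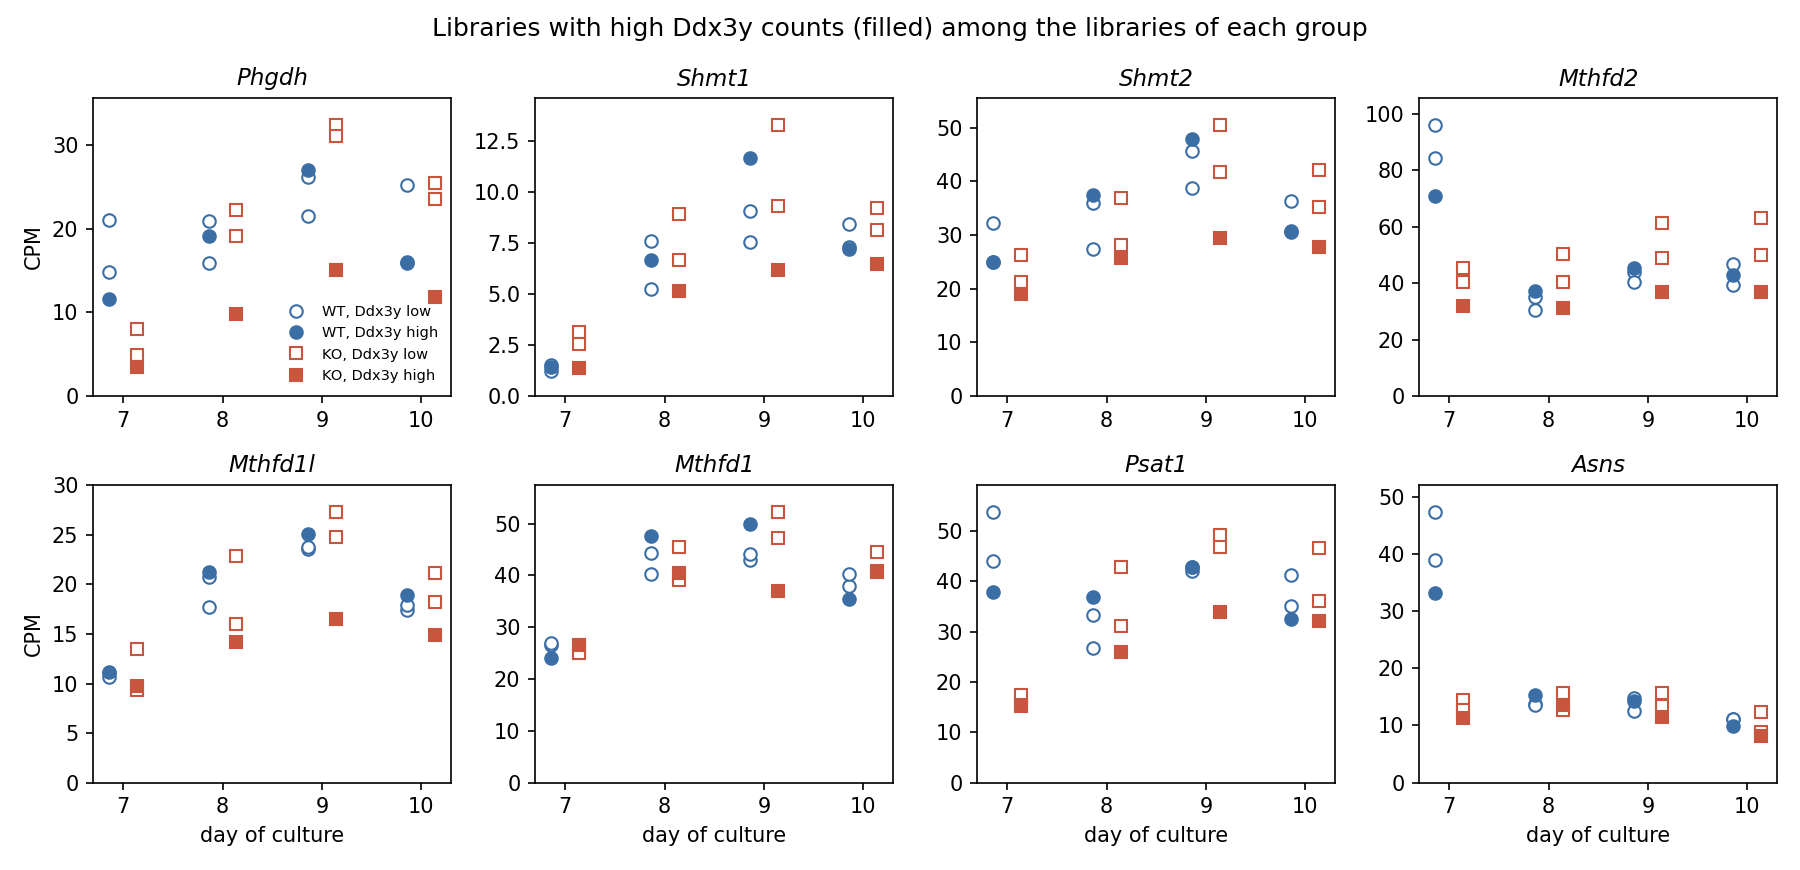
CPM (vertical axis, from 0) by day of culture (horizontal axis) for 8 enzyme genes, with 1 point per library (WT circles, KO squares) and filled symbols for the Ddx3y-positive library of each group. For Phgdh, Shmt1, Shmt2 and Mthfd2 the filled KO point is the lowest of its 3 on all 4 days.

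Markers of other cells were set beside the day 7 difference. The cell division list summed to 666.8 to 1038 CPM in KO and 504.6 to 581.3 CPM in WT on day 7, without overlap, and 23 of its 24 genes had a positive fold change (median 0.92), with 0 called by edgeR and 17 at an unadjusted p under 0.05, beside 15.7% of all genes tested. From day 7 to day 10, 23 of the 24 genes were called higher in WT and 23 in KO, beside 18.9% and 19.7% of all genes. The macrophage list (12 genes) summed to 5315 to 6093 CPM in WT and 4555 to 7451 CPM in KO on day 7, and the neutrophil list (12 genes) to 3251 to 4875 CPM and 3916 to 7439 CPM. The mast cell and basophil list (10 genes) summed to 84.98 to 108.7 CPM and 92.96 to 270.8 CPM. For the dendritic cell list (12 genes) the sums were 2621 to 3319 CPM and 2980 to 3748 CPM. At an unadjusted edgeR p under 0.05 stood 2 of 12 macrophage genes and 6 of 12 neutrophil genes. So did 5 of 9 tested mast cell and basophil genes and 1 of 12 dendritic cell genes, beside the same 15.7%. Of these 4 lists 1 gene was called, a macrophage gene higher in KO, beside 1.45% of all genes. Erythroid markers (8 genes) summed to no more than 2.79 CPM and lymphocyte markers (10 genes) to no more than 11.9 CPM in any library, with 4 of the erythroid genes at 0 in WT on day 7. At those low levels the day 7 erythroid sums were 0.856 to 1.73 CPM in WT and 1.89 to 2.79 CPM in KO, without overlap. Fewer cells of a type and less RNA per cell cannot be told apart in bulk RNA, and the part of these cells in the enzyme values was not tested.

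Other genes of the surrounding pathways were taken from lists of 93 genes, of which 79 were tested. On day 7, 4 of the 79 were called between the genotypes, beside 1.45% of all genes; they are named here after their values were seen. Atf4, the transcription factor described above, was at 243.7 to 298.5 CPM in WT and 186.1 to 189.3 CPM in KO (-0.54 ± 0.10, adjusted p = 0.0096), a call lost without WT mouse 65 or mouse 66. Without 1 mouse at a time the Atf4 value ran from -0.602 to -0.46. Trib3, a pseudokinase that ATF4 induces, was at -1.11 ± 0.15 (adjusted p = 0.00046). Aldh18a1, the first enzyme of proline synthesis, was at -0.76 ± 0.18 (adjusted p = 0.043), a call lost in 7 of 16 alternatives, among them both mouse blocks and the fits without WT mouse 63, 65 or 66 or KO mouse 68 (adjusted p up to 0.26). Mtr, methionine synthase, was higher at 0.42 ± 0.08 (adjusted p = 0.011), a call lost on TPM and without WT mouse 63, 65 or 66. Of 17 stress response regulators 2 were called, beside the same 1.45%, 9 had an unadjusted p under 0.05, beside 15.7% of all genes, and the median was -0.23. Of 13 purine synthesis genes 0 were called by edgeR and 3 had an unadjusted p under 0.05, with a median of -0.10, beside -0.01 over all genes.

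Over days 8 to 10, 6 of the 79 pathway genes were called between the genotypes, against 4.46% of all genes. Gls2, the liver-type glutaminase, was higher in KO by 1.35 ± 0.34 at low levels of 0.106 to 1.07 CPM. Eif2ak2, the kinase PKR, was higher by 0.23 ± 0.06 and Sesn2, a stress-induced sestrin, by 0.20 ± 0.05. Cebpg, a partner of ATF4, was at -0.16 ± 0.04 and Srr, serine racemase, at -0.22 ± 0.06. Each of the 6 calls was lost in at least 5 alternatives, among them the fit without KO mouse 67 and the fit without WT mouse 65. On days 8, 9 and 10 taken singly, 0 of 79 were called by edgeR, with 4, 7 and 12 at an unadjusted p under 0.05, beside 5.91%, 8.15% and 7.3% of all genes.

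From day 7 to day 10 23 of the 79 pathway genes were called higher and 21 lower in WT (44 in all), and 28 higher and 10 lower in KO (38 in all). Over all genes 18.9% were higher and 18.1% lower in WT, and 19.7% and 17.1% in KO, and the counts of each list below stand beside those shares. Their median log2 fold change was -0.027 in WT and 0.065 in KO, beside -0.015 and 0.003 over all genes. Among 18 folate genes tested, 6 rose and 4 fell in WT and 7 rose and 2 fell in KO. Tyms, thymidylate synthase, rose by 2.14 ± 0.27 in WT and 1.62 ± 0.26 in KO. Aldh1l1, the cytosolic counterpart of Aldh1l2, rose by 0.98 ± 0.15 in WT. In KO it was at 0.41 ± 0.15, a call lost in 7 of 16 alternatives, and at 0.205 without KO mouse 68 and 0.672 without KO mouse 67. Slc46a1, the proton-coupled folate transporter, was at -0.94 ± 0.30 in WT, a call lost without WT mouse 63, 65 or 66. The cell division, macrophage and dendritic cell lists moved over the same days, as given above.

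Of 13 purine synthesis genes, 8 rose and 3 fell in WT (all genes: 18.9% and 18.1%) and 9 rose and 2 fell in KO (19.7% and 17.1%). Impdh2, which commits IMP to guanine nucleotides, rose by 0.68 ± 0.10 in WT and 0.66 ± 0.10 in KO, Prps1 by 0.81 ± 0.20 and 0.91 ± 0.20, and Ppat by 0.56 ± 0.13 and 0.63 ± 0.13; in WT the Prps1 call was lost without mouse 65 and the Ppat call without mouse 66. Adssl1 was at -1.06 ± 0.13 in WT and -0.82 ± 0.13 in KO. Of 6 methionine cycle genes, 1 rose and 3 fell in WT, and 1 rose in KO; the riser was Ahcy, which clears S-adenosylhomocysteine, at 0.74 ± 0.13 and 0.77 ± 0.13. Of 9 genes of serine and glycine use, 1 rose and 1 fell in WT and 2 rose and 1 fell in KO, with Srr at -0.51 ± 0.10 in WT and -0.61 ± 0.10 in KO. The WT call of Srr was lost by limma on log2(TPM + 1), where it was at -0.207.

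Among 16 genes of asparagine, aspartate, glutamate and proline metabolism, 5 rose and 3 fell in WT and 6 rose and 1 fell in KO. Ass1, argininosuccinate synthase, rose by 0.75 ± 0.12 and 0.76 ± 0.12, and Glul, glutamine synthetase, was at -1.08 ± 0.22 and -1.27 ± 0.22. Aldh18a1 rose by 1.12 ± 0.18 in KO. Among the 17 stress response regulators, 2 rose and 7 fell in WT and 3 rose and 4 fell in KO. Trib3 was at -1.61 ± 0.15 in WT and -0.56 ± 0.15 in KO, Atf3 at -1.37 ± 0.27 and -1.39 ± 0.27, and Atf5 at -1.43 ± 0.23 in WT. The KO call of Trib3 was lost by limma on log2(TPM + 1), where it was at -0.233. Sesn2 rose by 0.57 ± 0.09 in KO. The genotype difference in these changes was called by edgeR for 0 of the 79 genes, with 12 at an unadjusted p under 0.05, beside 6.31% of all genes at that p and 0.0619% called.

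Likeness to Asns was ranked over the 24 libraries by Pearson's r of log2 CPM among 10573 genes. The closest 5 were Nars (0.956), Aars (0.919), Ghitm (0.869), Cyb5r1 (0.857) and Wars (0.856). Nars, Aars and Wars encode cytosolic aminoacyl-tRNA synthetases, for asparagine, alanine and tryptophan. For Shmt2 the closest were Siah1b (0.922), Thoc3 (0.901), Zc3hc1 (0.899), Phgdh (0.897) and Larp7 (0.887). Among the 10 enzymes Shmt1 went with Mthfd1 (0.929) and Mthfd1l (0.904), and Phgdh with Psat1 (0.874), whereas Asns went with Mthfd2 (0.753) and against Shmt1 (-0.629). Asns was at 33.2 to 47.41 CPM in the 3 WT libraries of day 7 and at 8.08 to 15.6 CPM in every other library. Its r values thus lean on libraries of the contrast from which the genes were chosen, and are not independent of it. All these r values describe 24 libraries that share days, genotypes and mice, and they carry no test.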

How the data were processed

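Poly(A) RNA from 24 libraries was analysed. The authors deposited raw counts per gene, whole numbers for 55487 genes, and TPM values; symbols came from their annotation table. FastQC 0.11.9, STAR 2.6.1, DESeq2 1.22.2 and build mm10 are named per the submitters' processing notes; the counter and its strand setting are not given in the sources used here. Counts were fitted with edgeR 4.0.16 in R 4.3.3 (TMM scaling, filterByExpr, 1 coefficient per group, 16 residual degrees of freedom, quasi-likelihood test), with p-values adjusted by Benjamini-Hochberg over 14535 genes and a threshold of 0.05. Alternatives used DESeq2 1.42.0 and limma 3.58.1 on log2(TPM + 1). The scripts were tested on simulated counts. Chi-square over degrees of freedom between replicate pairs was 7.1 to 125, so none of these 24 pairs, all within a group, was a copy.

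The enzymes, the pathway lists and the marker lists were chosen with earlier results of these data known. Named pathway genes were those called between genotypes on day 7 (added after their values were seen) or over days 8 to 10, and up to 3 per direction with the largest day 7 to day 10 change in each genotype. Some genes that this rule names are not reported here. The mouse numbers in the labels pair libraries across days: deviations of same-numbered WT libraries correlated at 0.148 to 0.737 (18 of 18 over 0.1), while KO correlated at -0.796 to 0.799 (7 of 18). Counting error is largest for Aldh1l2 (4 to 29 counts per library) and for Shmt1 on day 7 (26 to 73). Positions are those of GENCODE M21 on GRCm38, and promoter windows are those of RefSeq on GRCm38.p6.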

Additional observations from a re-analysis of the deposited data

Results flagged for a closer look

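The following 4 values are differences between the genotypes in their change over time (the interaction term of the edgeR fit) that passed the threshold. Asns differed by 1.6 on the log2 scale from day 7 to day 8 and by 1.5 from day 7 to day 10. Psat1 differed by 1.55 and 1.58 over the same intervals. All 4 contain the day 7 difference from which the genes were chosen, so they restate it and are no independent finding. Of 16 alternatives, Asns was no longer past the threshold in 4 and 5, and Psat1 in 9 and 7.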

How the results depend on the processing

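Of 33 calls on the enzymes, 24 held in every alternative and 0 reversed. All 33 come from comparisons that include day 7 libraries, so this tally is not independent of the choice of genes. Of 61 calls on pathway genes, 29 held and 6 reversed. Under limma-trend on log2(TPM + 1), where the median of all genes shifts by 0.165 to 0.249 from day 7, the reversed values were 0.046 for Ahcyl2, 0.081 for Mat2a, 0.012 for Prps2 and 0.01 for Adss in WT, and 0.013 for Ggh and 0.091 for Adss in KO. Members called on day 7 ranged from 2 to 4 without 1 mouse. Over days 8 to 10 the count was 1 without the Ddx3y-positive libraries, which also turned Asns (0.025), Shmt2 (0.13) and Mthfd1l (0.109), none past the threshold. WT day 8 to 9 gave 4 with only the groups compared (16.6% of all genes called) and 6 with the replicate block, KO numbers exchanged (16.6%); WT day 9 to 10 gave 2 (6.26%) and 4 (13%), and 0 to 1 without 1 mouse. The exchanged block gave 5 in KO day 8 to 9 (13.2%) and 2 in KO day 9 to 10 (5.95%). The day 7 to 8 genotype difference gave 0 with limma on TPM, 1 with only the groups compared, 1 with the replicate block, 4 exchanged (0.537%) and 0 to 1 without 1 mouse; that of day 7 to 10 gave 1, 0, 4 (exchanged, 1.79%) and 0 to 3. The block as labelled moved no other count of members by over 1.5 times. Unpassed values over days 8 to 10 turned sign: Phgdh -0.049 (Xist covariate), -0.033 (both blocks) and -0.085 to 0.15 without 1 mouse; Psph 0.037 (TPM) and -0.066 to 0.015; Psat1 -0.018 to 0.098; Shmt1 -0.072 to 0.125; Mthfd1 -0.025 to 0.071; Shmt2 -0.133 to 0.007; Aldh1l2 -0.458 to 0.334. The causes were not tested. Depth limits Aldh1l2 and the day 7 values of Shmt1 most.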

Other observations

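By its median, the spread of the 10 enzymes among the 3 libraries of a group was wider in KO on days 8, 9 and 10. On day 7 it was close between the genotypes. The median coefficient of variation of the 10 enzymes' CPM was 15.2%, 11.8%, 8.48% and 8.79% in WT on days 7, 8, 9 and 10, and 17.1%, 24.8%, 21.9% and 20.1% in KO. On day 9 the KO libraries of Phgdh had 15, 32.36 and 31.04 CPM, while those of WT had 27.0, 21.5 and 26.17 CPM. The difference in spread was not tested, and the spread over all genes was not computed, so it is not read as particular to the enzymes.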
